A study of Mus musculus with 8 samples.

Results

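The genes described here are the 39 mouse Hox genes of the 4 Hox clusters, taken as every gene whose name in the deposited files was Hoxa, Hoxb, Hoxc or Hoxd followed by a number, among 22017 genes in all. The Hoxa cluster held 11 of them, Hoxb 10, Hoxc 9 and Hoxd 9, their 64 listed transcripts were summed to genes, and 38 of the genes are described. RNA sequencing covered 8 libraries of 4T1 and TS/A, which are mouse breast cancer cell lines of the BALB/c strain, both cultured in RPMI with 10% FCS. Per the sample characteristics each line carried either an empty virus vector or one expressing Gpr56, now called Adgrg1, a cell surface receptor of the adhesion GPCR family with collagen III as a ligand, with 2 libraries in each of the 4 groups. The design text speaks of culture with type III collagen and of RNA taken at 72 h. The titles name the same 2 groups of each line Emp_Control and Emp_ColIII, so the vector and culture of a group cannot be fixed from the labels. The labels do not say whether the libraries within a group were separate cultures, or whether a line was 1 clone, so p-values measure the spread between these libraries, which may be technical.

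Adgrg1 itself, checked first, was at 2.51 and 2.73 CPM (read counts scaled to a common library total) in 4T1 with the empty vector and at 91.3 and 102 CPM in the Gpr56 vector libraries of this line. Its TS/A values were 36.7 and 15.5 CPM under the empty label and 22.9 and 13.1 CPM under the Gpr56 label, so its level did not part the TS/A labels, and the latter are called the libraries labelled Gpr56. Depth ran from 10510569 to 25959142 reads per library. The 2 TS/A empty libraries differed most, with a chi-square per degree of freedom of 122.8 against 3.64 to 18.05 in the other groups. Hox results that rest on either are given without it, while fold changes of flanking, cofactor and regulator genes use both. All 10 epithelial markers passed 1 CPM in at least 1 library of 4T1, where they summed to between 2280 and 3400 CPM. In TS/A 8 of the 10, among them Epcam, Cdh1 and Krt8, stayed below 1 CPM in every library, and the sum of 191 to 257 CPM was held by Krt18 and Krt19. The 8 fibroblast markers summed to between 8.64 and 15.4 CPM in 4T1 and between 141 and 354 CPM in TS/A, where Col1a1 stood at 131 to 328 CPM, while Col1a2 was at 0.0456 to 0.26 CPM. Immune markers summed to at most 18.1 CPM and endothelial markers to at most 0.897 CPM in any library. The 4 neural markers summed to 160 to 235 CPM in 4T1 and 122 to 214 CPM in TS/A, nearly all from Nes.

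Hox genes encode homeodomain transcription factors that give cells their position along the head-to-tail axis of the embryo. They lie in clusters in which genes near one end are used early and at the head end of the body and genes near the other end late and toward the tail, and genes in the same place of different clusters are called paralogues and share a number from 1 to 13. Silent clusters are covered by Polycomb proteins, and Hox proteins bind DNA together with Pbx, Meis and Pknox cofactors. Adult mammary epithelium and stroma keep part of this code, and several Hox genes are known for altered expression in breast cancer.

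The regions before the start sites of 3 members are shown as examples. Hoxa5 was the leading member in 4T1, Hoxa10 had overlapping levels in the lines and separate starts for its counted transcripts, and Hoxb8 had no read in any library. Sequences are those of RefSeq on GRCm38.p6, the 250 bases before the start, 5′ to 3′ on the strand of the gene, with each CpG dinucleotide in capitals. The Hoxa5 window is chr6:52204588-52204837 on the minus strand. The Hoxa10 windows are chr6:52240855-52241104 and chr6:52234940-52235189 on the minus strand, and the Hoxb8 window is chr11:96281655-96281904 on the plus strand.
Hoxa5: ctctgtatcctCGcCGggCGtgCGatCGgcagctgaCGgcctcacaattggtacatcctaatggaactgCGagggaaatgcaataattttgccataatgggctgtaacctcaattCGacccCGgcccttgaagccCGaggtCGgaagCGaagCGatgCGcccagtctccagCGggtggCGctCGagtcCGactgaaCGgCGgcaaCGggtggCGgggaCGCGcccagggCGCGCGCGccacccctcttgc
Hoxa10 outer start: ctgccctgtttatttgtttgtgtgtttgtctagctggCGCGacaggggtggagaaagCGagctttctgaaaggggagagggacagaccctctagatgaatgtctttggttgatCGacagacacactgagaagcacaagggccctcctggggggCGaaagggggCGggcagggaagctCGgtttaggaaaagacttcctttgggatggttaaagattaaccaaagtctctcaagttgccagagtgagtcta
Hoxa10 inner start: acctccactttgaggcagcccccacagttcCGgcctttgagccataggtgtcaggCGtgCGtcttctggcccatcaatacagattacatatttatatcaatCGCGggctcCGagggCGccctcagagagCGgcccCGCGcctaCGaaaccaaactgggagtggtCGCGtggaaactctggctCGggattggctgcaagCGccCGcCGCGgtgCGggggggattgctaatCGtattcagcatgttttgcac
Hoxb8: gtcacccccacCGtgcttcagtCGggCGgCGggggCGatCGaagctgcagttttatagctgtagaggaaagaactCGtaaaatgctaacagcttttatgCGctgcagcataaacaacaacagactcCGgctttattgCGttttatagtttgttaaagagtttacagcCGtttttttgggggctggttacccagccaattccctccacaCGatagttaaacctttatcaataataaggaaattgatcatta
No annotated exon of GENCODE M21 covers these 4 windows. They hold 28, 7, 20 and 12 CpG in that order, against a median of 12.5 over the 24 Hox windows of 22 Hox genes in the table and of 6 over all 32851 windows. The letters TATAAA, on either strand, were found in the inner Hoxa10 window and in Hoxb8, and in 12.4% of all windows. GGGCGG, the GC box, stood in the outer Hoxa10 window and in Hoxb8, and in 32.7% of all windows. Neither TGATTNAT, the paired Pbx and Hox site, which 2.82% of all windows hold, nor AGGTCA, the nuclear receptor half-site, which 14% hold, was found in the 4 windows. In CpG number the window of the silent Hoxb8 lay between both Hoxa10 windows. The table's Hoxa7 window lies upstream of, and apart from, the transcript that took most Hoxa7 reads and is not shown.

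Both lines drew nearly all of their Hox RNA from the Hoxa cluster, and neither used Hoxb. A gene was called expressed in a line when it reached 1 CPM in all 4 libraries of that line, absent when it had at most 3 reads in each, and low otherwise. In 4T1, 6 of 38 genes were expressed, 5 were low and 27 absent. In TS/A, 7 were expressed, 6 low and 25 absent. The 5 genes expressed in both lines were Hoxa2, Hoxa3, Hoxa5, Hoxa7 and Hoxa10. Hoxa6 met the rule only in 4T1, and Hoxa4 and Hoxc9 only in TS/A. By paralogue number, these were 2, 3, 5, 6, 7 and 10 in 4T1 and 2, 3, 4, 5, 7, 9 and 10 in TS/A, the 9 through Hoxc9. The Hoxa genes described took 99.2% to 99.5% of the Hox reads of a 4T1 library and 92% to 95.2% of those of a TS/A library. Summed deposited RPKM of at least 1 in all 4 libraries, which is a level per transcript length, gave 6 genes for 4T1 and 5 for TS/A.

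**Figure D1:**
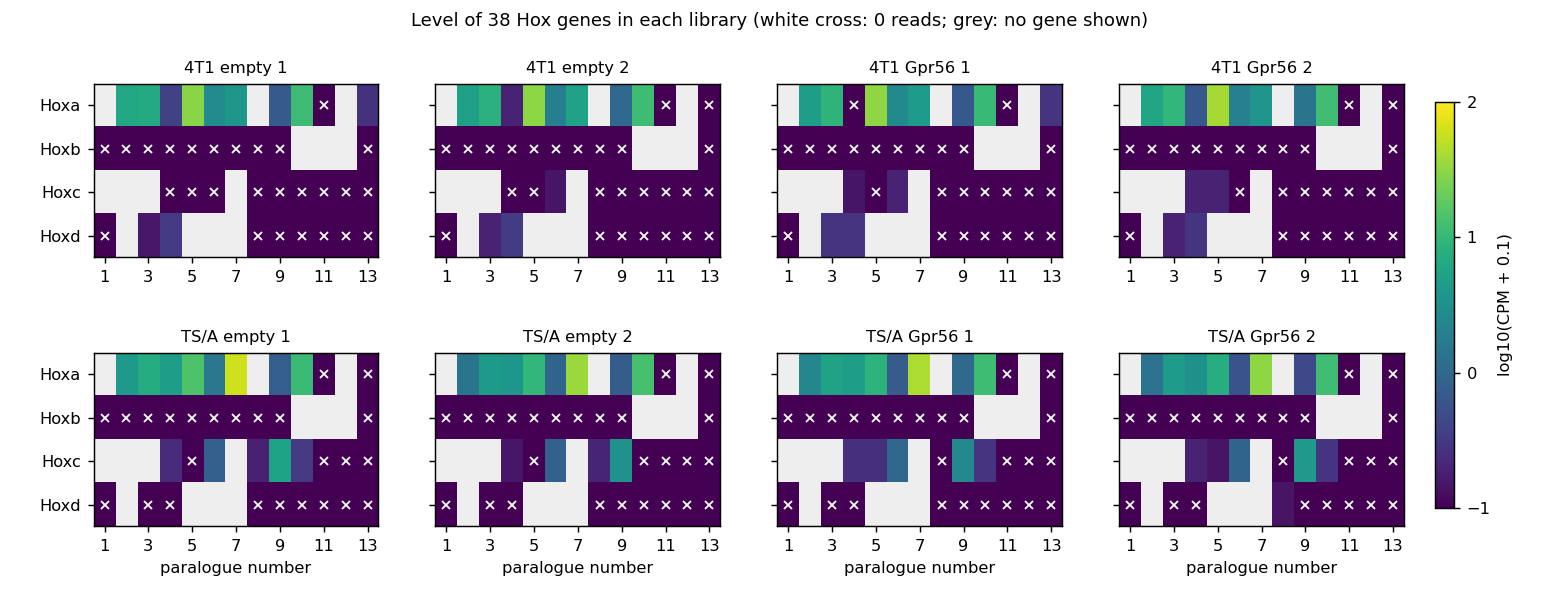
Level of 38 Hox genes in each of the 8 libraries as log10(CPM + 0.1), with clusters as rows and paralogue numbers as columns. A white cross marks 0 reads and grey a number with no gene shown. The Hoxa row is filled from 2 to 10 in every library except for Hoxa4 in 1 4T1 library, the Hoxb row is at 0 throughout, Hoxc reads stand mainly in TS/A and Hoxd3 and Hoxd4 reads only in 4T1.

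The summed level of 10 Hoxa genes was 61.2, 63.7, 64 and 74.1 CPM in the 4T1 libraries and 105, 69.3, 76.3 and 59.5 CPM in the TS/A libraries, in the order empty 1, empty 2, Gpr56 1 and Gpr56 2, which holds for all lists of 4 values below. The lines overlapped, with means of 65.8 ± 5.71 and 77.5 ± 19.6 CPM (SD, n = 4 each), and without TS/A empty library 1 the difference of the means went from 11.8 to 2.63 CPM. In contrast the members that made up this sum were not the same. Hoxa5 made up 46.9% to 52.9% of the summed RPKM of these 38 genes in 4T1 and 11.2% to 13.5% in TS/A. For Hoxa7 the share was 5.53% to 8.19% in 4T1 and 46.7% to 53.9% in TS/A. In RPKM, Hoxa5 exceeded Hoxa7 by 5.79 to 9.55 times in every 4T1 library, and Hoxa7 exceeded Hoxa5 by 3.5 to 4.58 times in every TS/A library. The 3′ ends of Hoxa5 and Hoxa7 lie 39.3 and 52.1 kb from that of Hoxa2, with Hoxa6 between them, on chromosome 6 in GRCm38.

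Between the lines 8 of the 10 Hox genes that passed the filter on low counts differed in edgeR's quasi-likelihood test (adjusted p under 0.05), 4 higher and 4 lower in TS/A. Of all 11967 genes tested 65.2% differed, 32.8% higher and 32.4% lower, so a called difference is the common case between these lines and the sizes below carry more than the count. The median log2 fold change of the 10 was -0.12, against 0.01 over all genes tested. Hoxa4, Hoxc6 and Hoxc9 passed the filter through TS/A alone, so a call for them could only be higher in TS/A. Their calls and p-values are no separate support for that direction. Counts of 4 higher and 4 lower were also found without TS/A empty library 1, where 76.2% of all genes were called, and without TS/A empty library 2, where 72.5% were. In bulk libraries, fewer cells with a transcript and less RNA per cell cannot be told apart. The lines also differed in all 10 epithelial markers and in 2 of the 3 fibroblast markers that passed the filter, of 8 listed. The part of these markers in the Hox differences was not tested.

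**Figure D2:**
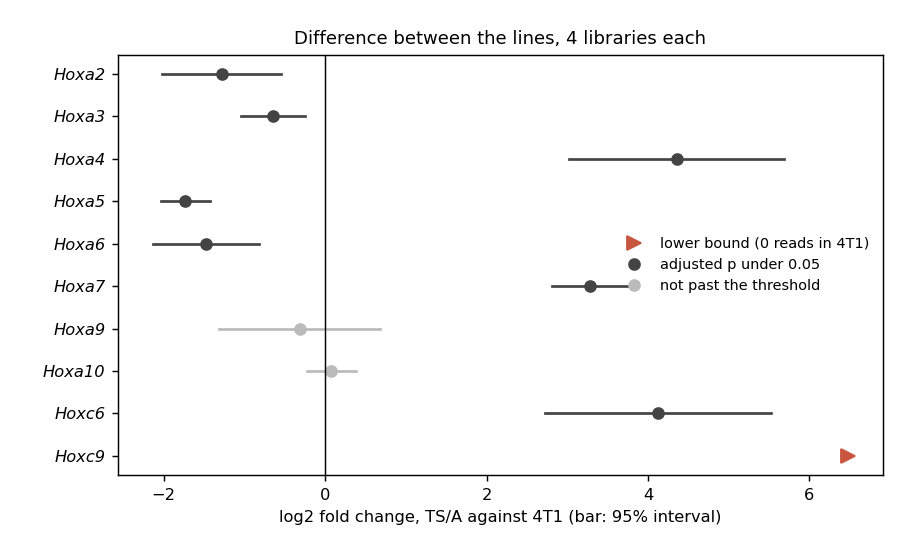
Log2 fold change of TS/A against 4T1 for the 10 Hox genes tested, averaged over the vector labels, with 95% intervals from edgeR (4 libraries per line). Hoxa2, Hoxa3, Hoxa5 and Hoxa6 lie left of 0, Hoxa4, Hoxa7 and Hoxc6 right of it, the intervals of Hoxa9 and Hoxa10 cross 0, and the triangle for Hoxc9 is the lower bound of 89.1-fold on the log2 scale.

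Toward the head end of the Hoxa cluster, Hoxa2 and Hoxa3 were expressed in both lines at 1.28 to 9.71 CPM and were lower in TS/A. Hoxa2, which sets the identity of the second pharyngeal arch, was at 6.03, 5.13, 4.77 and 5.9 CPM in 4T1 and at 4.15, 1.38, 2.31 and 1.28 CPM in TS/A. Here the lines did not overlap, although TS/A empty library 1 came close to 4T1, and the log2 fold change was -1.28 (SE 0.32, edgeR adjusted p = 0.00745), and -1.73 without that library. Hoxa3, which patterns the thymus and parathyroid, was at 6.76, 8.05, 8.73 and 9.71 CPM in 4T1. In TS/A it was at 7.18, 4.24, 5.28 and 4.47 CPM, where only TS/A empty library 1 reached the 4T1 range. Its log2 fold change was -0.65 (SE 0.17, edgeR adjusted p = 0.0102) with that library and -0.82 without it. Hoxa2 and Hoxa3 fell below the threshold when only the empty vector groups were compared, at -1.04 and -0.40 (edgeR adjusted p = 0.0838 and 0.201). That comparison called 5 of 10 Hox genes and 47.4% of all genes, and without TS/A empty library 1 it called 8 of 10 and 64.2%.

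Hoxa4, a gene of the neck and upper trunk, was at or near 0 in 4T1 between expressed neighbours. It had 5, 2, 0 and 6 reads in 4T1 and 110, 71, 119 and 69 reads in TS/A. That is 0 to 0.571 CPM in 4T1 and 3.15 to 4.76 CPM in TS/A, with no overlap. The log2 fold change was 4.36 (SE 0.58, edgeR adjusted p = 0.000283). Its size turned on the few 4T1 reads, at 3.63 without 4T1 Gpr56 library 1, which had none, and 6.94 without 4T1 Gpr56 library 2. Pooled over libraries, 13 reads in 4T1 stood against 369 in TS/A, a ratio of 22.3 with a 95% exact binomial interval of 12.9 to 42.3, which covers counting error only. Hoxa3 and Hoxa5, on either side of it, were expressed in all 4 libraries of 4T1.

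Hoxa5, needed in the embryo for the lung and lower neck and studied as a tumour suppressor in breast cancer, was the most abundant Hox gene of 4T1 per transcript length. It stood at 29.5, 30.8, 32 and 39.1 CPM in 4T1 and at 14.6, 9.64, 8.71 and 7.34 CPM in TS/A. All 4T1 libraries were at least 29.5 CPM and all TS/A libraries at most 14.6 CPM. The log2 fold change was -1.73 (SE 0.13, 95% interval -2.04 to -1.43, edgeR adjusted p = 1.27e-05). Hoxa6, its neighbour toward the tail end and a gene of the upper trunk, followed in the same direction at a lower level. It had 48, 40, 54 and 20 reads in 4T1 and 33, 16, 17 and 11 reads in TS/A, or 1.85 to 2.68 CPM and 0.502 to 1.43 CPM. Its log2 fold change was -1.48 (SE 0.29, edgeR adjusted p = 0.0021), and -1.02 with adjusted p = 0.0592 in the empty vector groups alone.

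Hoxa7, a gene of the trunk and a known target of Mll proteins, showed the opposite pattern to Hoxa5 and was the most abundant Hox gene of TS/A. It stood at 3.8, 5.23, 4.44 and 3.52 CPM in 4T1 and at 61.2, 35.5, 42.1 and 30.5 CPM in TS/A. The lowest TS/A library was several times above the highest 4T1 library. The log2 fold change was 3.28 (SE 0.21, 95% interval 2.81 to 3.75, edgeR adjusted p = 4.05e-06), a difference of 9.7-fold, and 3.10 without TS/A empty library 1, the highest of the 4. Of the Hoxa7 reads of 4T1, 68, 113, 94 and 37 by library, the 2-exon transcript ENSMUST00000048715 took 83.8%, 86.7%, 50% and 48.6%. ENSMUST00000153280, which is annotated as a target of nonsense-mediated decay, took 16.2%, 9.7%, 34% and 40.5%. Both empty vector libraries thus stood apart from both Gpr56 vector libraries in these shares, on few reads, and this difference was not tested. In TS/A the first transcript took 97.4% to 97.8% and the second 1% to 1.8% of the reads of a library. How the authors split reads between overlapping transcripts is not given in the sources used here.

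**Figure D3:**
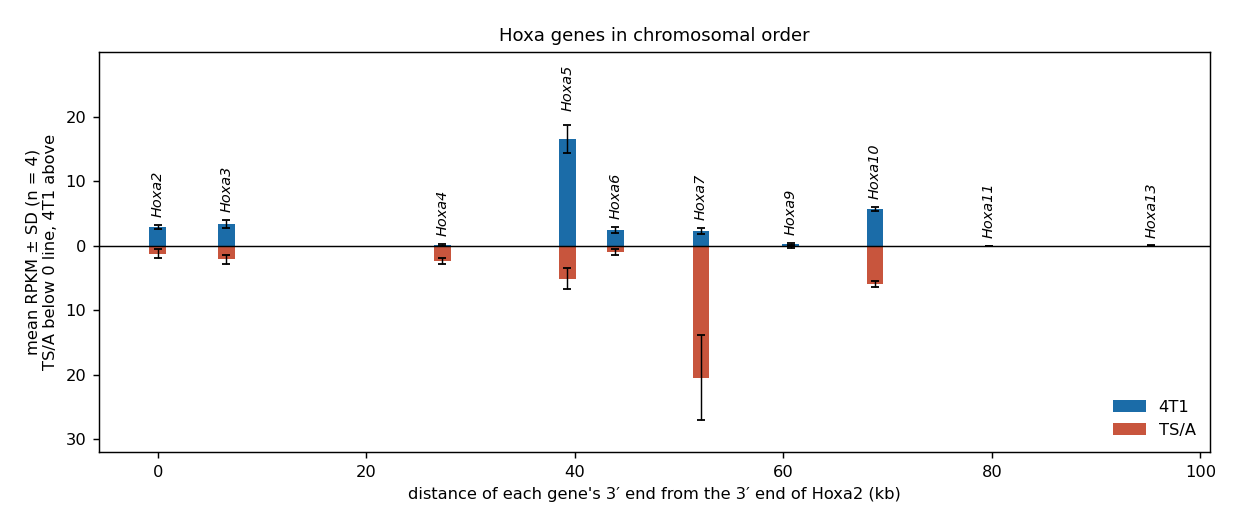
Mean summed RPKM ± SD (n = 4 libraries) of 10 Hoxa genes by the distance of their 3′ end from that of Hoxa2, with 4T1 above and TS/A below the 0 line. The tallest 4T1 bar is Hoxa5 at 39.3 kb and the tallest TS/A bar Hoxa7 at 52.1 kb, Hoxa10 at 68.8 kb is alike in both, and Hoxa11 and Hoxa13 are at or near 0.

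Hoxa9 and Hoxa10, toward the tail end of the cluster, did not pass the test between the lines, and only Hoxa10 had a narrow interval. Hoxa9, known as a driver of leukaemia, was low in both, at 0.566 to 1.33 CPM in 4T1 and 0.365 to 0.963 CPM in TS/A, and no difference passed the test (log2 fold change -0.32, 95% interval -1.31 to 0.68, edgeR adjusted p = 0.539). Hoxa10, which patterns the uterus, was expressed at 11.4, 11.6, 10.8 and 12.1 CPM in 4T1 and at 11, 13.5, 11.7 and 12 CPM in TS/A. These ranges overlapped, and the log2 fold change was 0.08 (SE 0.13, 95% interval -0.23 to 0.38, edgeR adjusted p = 0.626). Its counted transcripts, which begin at the separate starts shown above, took 46.5% (outer) and 53.5% (inner) of its reads in 4T1 and 41.9% and 58.1% in TS/A. Hoxa11, which patterns the forearm and uterus, had 0 reads in all 8 libraries. Hoxa13, the last gene of the cluster and one of the digits and genital tract, had 3 and 4 reads in 1 empty and 1 Gpr56 library of 4T1 and none in TS/A. Hoxa10 was thus the last gene of the row with a level above 1 CPM.

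**Figure D4:**
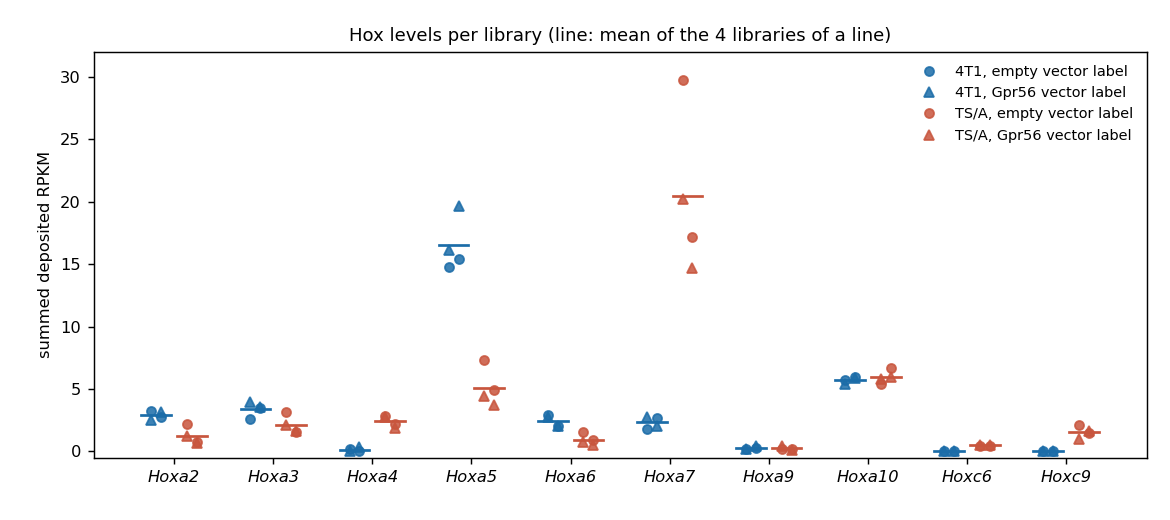
Summed deposited RPKM of the 10 Hox genes tested, in each library, coloured by line and shaped by vector label, with a bar at the mean of the 4 libraries of a line. Hoxa5 is at 14.8 to 19.7 in 4T1 against 3.73 to 7.35 in TS/A, Hoxa7 at 1.78 to 2.78 against 14.7 to 29.8, and Hoxa10 at 5.36 to 5.99 against 5.39 to 6.66.

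Per transcript length the order of the genes in 4T1 was Hoxa5 (16.5 ± 2.17 RPKM), Hoxa10 (5.73 ± 0.27), Hoxa3 (3.39 ± 0.574), Hoxa2 (2.9 ± 0.324), Hoxa6 (2.42 ± 0.464) and Hoxa7 (2.31 ± 0.474), each as mean and SD of 4 libraries. Hoxa5, Hoxa10 and, against Hoxa9 (0.255 ± 0.104), Hoxa7 each stood clear of the next gene, and the ranges of each neighbouring pair from Hoxa3 to Hoxa7 overlapped. In TS/A it was Hoxa7 (20.5 ± 6.6 RPKM), Hoxa10 (5.94 ± 0.529), Hoxa5 (5.1 ± 1.58), Hoxa4 (2.4 ± 0.453), Hoxa3 (2.11 ± 0.722), Hoxc9 (1.54 ± 0.474), Hoxa2 (1.22 ± 0.707) and Hoxa6 (0.924 ± 0.437). Hoxa7, Hoxa5 and, against Hoxc6 (0.482 ± 0.0406), Hoxa6 stood clear of the next gene there, and Hoxa10 exceeded Hoxa5 in 3 of 4 TS/A libraries with overlapping ranges.

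Hoxc genes were read in TS/A and hardly in 4T1. All 9 were absent from 4T1 by the rule above, with 0, 1, 3 and 2 reads for the whole cluster, against 151, 83, 100 and 112 reads in TS/A. Hoxc9, which represses other Hox genes in motor neurons of the trunk, had no read in 4T1 and 124, 65, 64 and 87 reads in TS/A, or 2.47 to 5.36 CPM. Set against 3 reads over the pooled 4T1 libraries, or 0.0421 CPM, Hoxc9 was 89.1-fold higher in TS/A. This fold, and those below against 3 reads, leave out counting error in the line that was read. The edgeR test of Hoxc9 (log2 fold change 9.24, adjusted p = 6.43e-05) used the counts themselves and not this bound. Hoxc6, a trunk gene also known from the mammary gland, had 0, 1, 2 and 0 reads in 4T1 and 17, 15, 23 and 18 in TS/A. That is at most 0.0944 CPM against 0.735 to 0.886 CPM (edgeR adjusted p = 0.000508), with a ratio of pooled reads of 19.1 and a 95% exact binomial interval of 6.29 to 94.9. The log2 fold change of Hoxc6 was 4.12, and 5.30 and 5.84 without 4T1 empty library 2 and 4T1 Gpr56 library 1, the only 4T1 libraries with a read. Hoxc10, which acts in lumbar motor neurons, had 14 reads in TS/A, none of them in TS/A empty library 2, and none in 4T1. Against 3 pooled reads in 4T1 this was 3.67-fold higher. With no filter on low counts, where 51.6% of all genes were called, Hoxc10 did not pass (edgeR adjusted p = 0.05 after rounding). Hoxc4 and Hoxc5 had 10 and 5 reads in TS/A and 2 and 1 in 4T1, and Hoxc8 had 4 reads, all in the TS/A empty libraries. Hoxc11, Hoxc12 and Hoxc13 had none. With 340 reads, Hoxc9 held most of the Hoxc reads of TS/A.

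Hoxd reads ran the other way, at far lower levels. Hoxd4, a gene of the neck, had 4, 5, 4 and 2 reads in 4T1 and none in TS/A, 6.36-fold lower if 3 pooled reads are allowed in TS/A. Hoxd3 had 1, 2, 4 and 1 reads in 4T1 and none in TS/A, 3.39-fold lower on the same terms. Both were read in all 4 libraries of 4T1 at 0.0559 to 0.231 CPM, under the filter of the main test, and with no filter, where 51.6% of all genes were called, Hoxd4 passed the test (edgeR adjusted p = 0.0116) and Hoxd3 did not (adjusted p = 0.075). The exons of the counted Hoxd3 and Hoxd4 transcripts each overlap those of Gm28230, a read-through gene that had 2 reads, so that reads could be split with it. Hoxd8 had 1 read, in 1 TS/A library, and Hoxd1, Hoxd9 and the limb genes Hoxd10, Hoxd11, Hoxd12 and Hoxd13 had none.

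All 10 Hoxb genes had 0 reads in all 8 libraries, as had 20 of the 38 genes in all. Over 161842793 reads a count of 0 allows a level of up to 0.0185 CPM (3 reads), and 0.0421 CPM in the pooled 4T1 and 0.0331 CPM in the pooled TS/A libraries, for counting error only. Among genes flanking the clusters levels varied. Next to Hoxd, Mtx2 stood at 82.2 ± 2.16 CPM in 4T1 and 84.2 ± 9.78 CPM in TS/A and Lnpk at 32.4 ± 2.36 and 41.4 ± 5.96 CPM (SD, n = 4 each). Skap1, 96.3 kb from Hoxb, was at 1.26 ± 0.328 and 1.29 ± 0.676 CPM, and on the other side Ttll6 at 28.9 kb and Calcoco2 at 82.4 kb had 3 and 5 reads over all 8 libraries. Skap2, 143 kb from Hoxa, was at 78.1 ± 1.72 and 95.4 ± 9.91 CPM. Evx1 and Evx2, the homeobox genes at the tail ends of Hoxa and Hoxd, had no read. Of 15 flanking genes in the files 11 were tested, and 4 were higher in TS/A and 2 lower, against the 65.2% of all genes called (32.8% higher, 32.4% lower), with the lowest p for Calcoco1 (log2 fold change 1.41, edgeR adjusted p = 1.58e-05) and Hibadh (0.93, adjusted p = 0.000818).

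No Hox gene passed the test for the vector label in either line. In 4T1, where the Gpr56 vector raised Adgrg1, 0 of 10 Hox genes passed edgeR's test and 0 passed DESeq2, while 27 of all genes (0.226%) passed edgeR. By edgeR 0 of the 10 had an unadjusted p under 0.05, against 1367 of all 11967 genes. Fitted without TS/A, the 4T1 libraries called 22.8% of all genes and 0 of 7 Hox genes. None of the 7 had an unadjusted p under 0.05, against 4019 of all 11359 genes in that fit. The 95% interval of the log2 fold change in 4T1 was -0.21 to 0.61 for Hoxa5, -0.91 to 0.52 for Hoxa7 and -0.48 to 0.39 for Hoxa10. In TS/A 0 of 10 passed edgeR and DESeq2, against 0.00836% of all genes called by edgeR. An unadjusted edgeR p under 0.05 was found for 417 of all 11967 genes and for 1 Hox gene. That gene was Hoxa5, at 14.6 and 9.64 CPM under the empty label and 8.71 and 7.34 CPM under the Gpr56 label, with a log2 fold change of -0.58 (SE 0.19, unadjusted p = 0.0149 and adjusted p = 1 by edgeR).

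The TS/A result rested on which empty library was used. Without TS/A empty library 2, which leaves library 1 alone in its group and takes its spread from the other groups, 3 Hox genes were lower in the libraries labelled Gpr56, and 23.9% of all genes were called in either direction. These were Hoxa2 (log2 fold change -1.11, edgeR adjusted p = 0.0354), Hoxa5 (-0.78, adjusted p = 0.0064) and Hoxa7 (-0.67, adjusted p = 0.0193). Without TS/A empty library 1 none passed, and the values were 0.32, -0.34 and -0.04. The vector effect in TS/A minus that in 4T1 passed edgeR's test for 0 of 10 Hox genes, and for 0 by DESeq2, against 0.0669% of all genes. By edgeR 1 of them, Hoxa5, had an unadjusted p under 0.05 (-0.79, adjusted p = 0.614), against 766 of all 11967 genes. Without TS/A empty library 2 it passed for Hoxa5 alone (-0.97, edgeR adjusted p = 0.00765), against 19.5% of all genes.

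**Figure D5:**
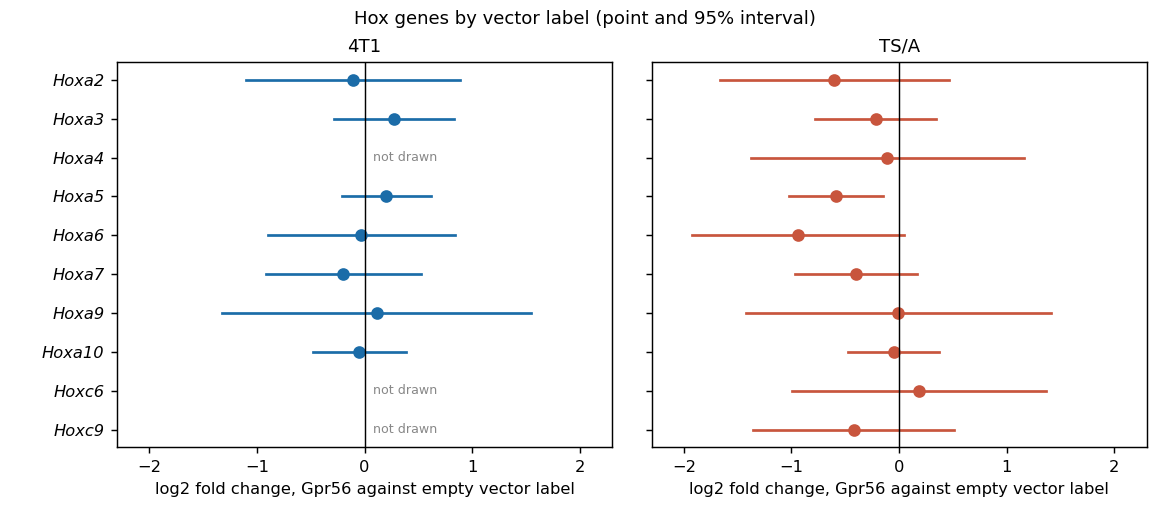
Log2 fold change of the Gpr56 against the empty vector label for the 10 Hox genes tested, in 4T1 and in TS/A, with 95% intervals from edgeR (2 libraries per group). Hoxa4, Hoxc6 and Hoxc9, with 13, 3 and 0 reads in all of 4T1, are not drawn there. The intervals cross 0 for all genes drawn except Hoxa5 in TS/A, whose adjusted p is 1.

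Of 8 cofactors of the TALE class, with which Hox proteins bind DNA, 6 were tested and 3 differed between the lines, 2 higher and 1 lower in TS/A, against the 65.2% of all genes. Meis3 was lower in TS/A (-1.62, SE 0.18, edgeR adjusted p = 0.000108), at 2.05 ± 0.275 CPM against 6.55 ± 2.09 CPM. Meis2 (0.55) and Pbx2 (0.45) were higher in TS/A. Meis1 (-0.38, edgeR adjusted p = 0.0507), Pbx3 (0.12) and Pknox1 (-0.07) did not pass, and Pbx4 and Pknox2 had 2 and 8 reads in all. Neither line lacked a whole class of cofactor, since Pbx, Meis and Pknox members were each above 1 CPM in both.

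Among regulators of the clusters, all 29 Polycomb genes listed were tested, and 11 were higher and 7 lower in TS/A, with a median log2 fold change of 0.16 against 0.01 over all genes. This and the 2 counts that follow stand against 65.2% of all genes called, 32.8% higher and 32.4% lower. Lower were Phc2 (-1.02, a PRC1 subunit), Pcgf6 (-0.91) and Phf19 (-0.87, a PRC2 partner), and higher were Ezh1 (0.81, a PRC2 methyltransferase), Yaf2 (0.94) and Pcgf1 (1.69), those with the lowest p each way. A further list held Trithorax genes and H3K27 demethylases, which act to keep Hox genes on, and also Mllt1, Mllt3 and others of neither kind. Of its 18 genes, 9 were lower and 1 higher in TS/A, and the median was -0.43. Ash2l (-0.64), Mllt1 (-0.77) and Wdr5 (-0.49) led the former, and Mllt3 (0.41) was the latter. Mllt3 stood at 40.2 CPM in TS/A empty library 1 and at 24.8 to 29.2 CPM in the other TS/A libraries. Its 4T1 values were 16.5 to 27 CPM, so the lines overlapped. Of 19 retinoid, Cdx and Ctcf genes, which include inducers of the clusters and their boundary factor, 11 were tested, 5 were higher and 4 lower, and the median was 0.32. Egr2, a hindbrain regulator (3.19), Rxrb (0.71) and Rarg (0.82) were higher, and Ctcf, which sets boundaries within the clusters, (-0.81), Rxra (-0.80) and Gdf11 (-0.70) were lower. Egr2 stood at 0.142 to 0.601 CPM in 4T1 and 2.25 to 3.66 CPM in TS/A, so its size rested on few 4T1 reads. Cdx2 and Cdx4, inducers of central Hox genes, and Rarb, a retinoic acid receptor that responds to its own ligand, had no read. In neither vector contrast did a gene of these regulator and cofactor lists pass edgeR's test. Of all genes 0.226% passed in 4T1 and 0.00836% in TS/A, so lists of this size would hold hardly any call at that share.

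Antisense and read-through transcripts bear on these values, since the libraries do not mark strand. In GENCODE M21, 20.4% of the exonic bases of Hoxa7 lie opposite Hoxaas3, 18.9% of those of Hoxa3 opposite Hoxaas2 and 16% of those of Hoxa4 opposite Gm29430. These antisense genes were not counted in the files, so reads from them could not be told apart from those of the Hox genes. Hoxc10 shares 8.7% of its exonic bases with Hoxc5. No exon of another gene overlaps those of Hoxa5, Hoxa6, Hoxa9, Hoxa10, Hoxc6 and Hoxc9. Of 20 names listed as noncoding or antisense genes of the clusters 1 was in the files, 5730596B20Rik of the Hoxa cluster, which GENCODE M21 annotates as protein coding, with 4 to 29 reads per library and no difference past the test. Gm28308, which reads through Hoxa2 and Hoxa3, had at most 6 reads per library.

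The genes whose levels were most like those of the leading Hox genes over the 8 libraries are given as a description. By Pearson's r of log2(CPM + 0.5) they were Cast (r = 0.997), Irs1 (r = 0.997) and Nrcam (r = 0.997) for Hoxa7, and Tada2b (r = 0.994), Slc15a4 (r = 0.994) and 6430548M08Rik (r = 0.993) for Hoxa5. For Hoxa10 they were Rnf7 (r = 0.968), Polr2j (r = 0.966) and Hsbp1 (r = 0.962). The 8 points are 2 lines of 4 libraries, so that for Hoxa5 and Hoxa7 a high r records the split between the lines, which 65.2% of genes share in one direction or the other.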

How the data were processed

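The authors deposited, per the file headers, a table per library with transcript identifiers, gene names, total gene reads as raw counts and RPKM. RPKM in the deposited files equalled reads per transcript length and library factor within 0.001 for 98.4% of transcripts with at least 20 reads. No aligner, counting rule or genome build is given in the sources used here. Per the labels' protocols, total RNA from the RNeasy Mini Kit went into TruSeq RNA v2 libraries, a kit that does not mark strand. Each of the 65042 transcripts was assigned to a gene by its name, and counts and RPKM were summed per gene. Of these transcripts 65023 matched GENCODE M21 (GRCm38), from which coordinates and types were taken. CPM is scaled to the library's total reads.

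Counts were tested with edgeR 4.0.16 (R 4.3.3): TMM scaling, filterByExpr on the 4 groups, a single quasi-likelihood fit of all 8 libraries and Benjamini-Hochberg adjustment over 11967 genes at 0.05, with contrasts for the line, the vector in each line and their difference. DESeq2 1.42.0 was an alternative, as were other scalings and filters, a replicate block, separate fits and leaving out each library. Summaries and figures used Python 3.11.15, pandas 2.3.3, numpy 2.4.6, scipy 1.17.1 and matplotlib 3.10.9. The fit was tested on simulated data holding 100 genes with a 1.5-fold change and 100 with a 3-fold one. The line contrast (11763 genes) found 45 and 94, the 4T1 vector contrast (11741 genes) 10 and 82 and the TS/A vector contrast (11771 genes) 17 and 82. False calls were 9 of 148, 5 of 97 and 8 of 107 calls in that order. All simulated libraries shared a spread per gene, so the wider TS/A empty pair was not imitated. The permutation test planned for summed cluster levels is not given, because no p is given for a score over members that were chosen with earlier results known. Named are the Hox genes, the TALE cofactors and, of the other lists, up to 3 called genes each way with the lowest p. Flanking and regulator genes without a call (Mtx2, Skap1, Skap2, Ttll6, Calcoco2, Evx1, Evx2, Cdx2, Cdx4, Rarb) were named after their values were seen. A member and a cofactor are not reported here, and counts, sums and shares leave them out. The members and lists were chosen with earlier results of these data known.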

Additional observations from a re-analysis of the deposited data

How the results depend on the processing

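Between the lines 8 Hox genes were called under every scaling, under DESeq2 and without each library in turn, 9 with no filter and 2 of the 3 left under a filter of 10 CPM in 2 libraries, which tests fewer genes. Of all genes, 7582 to 7831 of 11967 were called under the other scalings and DESeq2. There were 8156 of 15809 with no filter and 6117 of 9221 under the filter of 10 CPM. A call was thus the common case in these settings too, and the steady count says little about Hox genes. In the empty vector groups alone 5 Hox genes were called, against 47.4% of all genes, and Hoxa2 (-1.04), Hoxa3 (-0.40) and Hoxa6 (-1.02) lost their call. The values of 2 genes with no call turned sign, Hoxa9 to 0.00 without 4T1 Gpr56 library 2 (-0.75 to 0.00 without each library in turn) and Hoxa10 to -0.04 without TS/A empty library 2 (-0.04 to 0.19). The difference in summed Hoxa level ran from 2.63 to 17.8 CPM without each library in turn, against 11.8. The cause of these changes was not tested.

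Without each library in turn, the log2 fold change of Hoxa5 for the vector label in TS/A ran from -0.78 to -0.34. Its difference between vector effects, TS/A minus 4T1, ran from -0.97 to -0.53. No Hox gene was called for the vector in 4T1 under any alternative. Counts over all genes were less steady. For the vector in 4T1 there were 27 calls, 272 by DESeq2, 259 with no filter, 2590 with 4T1 fitted alone and 0 to 1284 without each library. In TS/A there was 1, against 10 by DESeq2, 8 with no filter, 0 with library totals and 0 to 2938 without each library. For the difference there were 8, against 66, 58, 4 and 0 to 2396.

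The labels do not say what a replicate number marks, and deviations of same-numbered libraries correlated at 0.31 for the TS/A groups and at -0.06 to 0.03 for the other pairs of groups. A fit with the replicate block called 8 Hox genes between the lines (4 higher, 4 lower), against 7829 of all 11967 genes. It called 7 Hox genes in the empty vector groups alone (4 higher, 3 lower) and 0 in each vector contrast. Over all genes it moved the counts from 27 to 35 for the vector in 4T1, from 1 to 0 in TS/A and from 8 to 3 for the difference. At 10510569 reads in the shallowest library 3 reads are 0.285 CPM, so levels below this were not resolved in single libraries.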
